A study of Homo sapiens with 12 samples.

Results

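The genes described here are those for the secreted growth factors of the TGF-β family proper, their receptors and latent TGF-β binding proteins of the matrix, and genes that the pathway switches on. They were chosen by symbol, as TGFB1, TGFB2, TGFB3, TGFBR1, TGFBR2, LTBP1, LTBP2, SMAD7 and TGFBI, and all 9 were found among the 60660 gene identifiers of the expression table. All 9 passed the filter on low values that left 14858 genes for testing. Messenger RNA was sequenced from dH1f cells, fibroblasts derived from the H1 human embryonic stem cell line. One set of cells, genotype wildtype, carried a non-targeting control guide (NT). The other, labelled MRG15 knockout (KO), carried a guide against MRG15 in lenticrisprv2, a lentiviral CRISPR vector. Both were sampled prior to OSKM, called day 0, and 6 days after it, which gives 4 groups of 3 libraries. OSKM is the mixture of OCT4, SOX2, KLF4 and MYC that turns somatic cells pluripotent. All KO libraries carry the same guide code, the samples include no day 6 cells that lacked OSKM, and neither clonality nor the origin of the replicates is given in the sources used here. Effects of that guide other than loss of MRG15, and effects of time in culture other than OSKM, therefore cannot be told apart from the factors named. The spread behind every p-value is that between these libraries, and it may be technical.

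TGF-β ligands are made as precursors that stay wrapped in their own propeptide, and the latent complex is tethered to matrix by a latent TGF-β binding protein until it is activated. Free ligand brings together the type II receptor TGFBR2 and the type I receptor TGFBR1, which phosphorylates SMAD2 and SMAD3, and these enter the nucleus with SMAD4. SMAD7 is induced by the pathway and blocks the type I receptor, so it acts as feedback. In fibroblasts the pathway is known for driving matrix and contractile genes, and chemical inhibitors of the type I receptor have been used to help mouse fibroblasts reprogram.

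The libraries carried what their labels say. MORF4L1, the gene for MRG15, lay between 6709 and 7863 estimated normalised counts in the 6 NT libraries and between 961 and 1421 in the 6 KO libraries. POU5F1 and SOX2 were at most 6.74 in every day 0 library and at least 3973 in every day 6 library. On day 6 each OSKM factor was higher in KO than in NT libraries, without overlap. POU5F1, which encodes OCT4, lay at 3973 to 4101 in NT and 6056 to 6330 in KO libraries, and SOX2 at 4912 to 5384 and 7754 to 8352. KLF4 lay at 16221 to 16710 and 18008 to 19513, and MYC at 15244 to 15859 and 16495 to 17722. The part of this difference in the day 6 results was not tested. Estimated depth was 17.9 to 22.3 M reads per library, lowest in KO cells on day 6, where the group mean was 18.9 M against 20.9 to 21.5 M elsewhere. All 10 fibroblast markers examined were present in each group. Their summed count was 1176550.3 to 1255996 in NT and 869000.5 to 879203 in KO libraries on day 0, and 581201 to 615515 and 209579.5 to 222443 on day 6. COL1A1 and COL1A2 made up most of that sum in every group. Their day 0 means were 593718 and 337735 in NT and 396084 and 232578 in KO cells. VIM, LUM and DCN had higher day 0 means in KO cells (VIM 121114 in NT and 132558 in KO), and each of the others a lower one. Of these 10 markers 5 were lower and 2 higher in KO cells on day 0, and 9 were lower and 0 higher on day 6. The 5 smooth muscle markers, which myofibroblasts share, summed to 67478 to 74379 and 33460 to 34688 on day 0 and to 17022 to 18602 and 3710 to 4048 on day 6, and 4 and then 5 of them were lower in KO cells. Pluripotency markers (8 of 8) and epithelial markers (6 of 6) rose with OSKM in both genotypes. On day 6 the pluripotency sum was 13425 to 14002 in NT and 21179 to 22193 in KO libraries, with 7 of 8 markers higher in KO cells and 0 lower. POU5F1 and SOX2, themselves OSKM factors, made up most of that sum. Their means were 4018 and 5216 in NT and 6211 and 8092 in KO cells. The epithelial sum was 36555 to 39524 and 33306 to 34680.1, with 3 of 6 higher and 1 lower. The lower one was KRT14, with means of 14732 in NT and 4056 in KO cells, and each of the others had a higher mean in KO cells. The 4 endothelial markers summed to 55.9 to 151 on day 0 and to 827 to 951 on day 6, where KDR made up most, and of the 3 tested 2 were higher in KO cells on day 0 and 0 were called on day 6. The 4 immune markers summed to 337 to 398 in NT and 461 to 487 in KO libraries before OSKM and to 121 to 161 and 133 to 192 after it. CD68 held most of that sum on day 0, with means of 354 and 455. PTPRC went from 3.83 to 25.3 in NT and from 15.4 to 67.9 in KO cells, CD14 and CD3E had means under 15 in every group, and of the 2 immune markers tested 1 was higher in KO cells on day 6. The part of these shifts in the results below was not tested, and in bulk RNA fewer cells of a type and less RNA per cell cannot be told apart.

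Counts given below are estimates of normalised counts, obtained by inverting the variance-stabilising transformation (VST) of the deposited values. Differences are differences of mean VST values, on a log2 scale, from limma over all 14858 genes. Calls were made where the p adjusted over these genes by Benjamini-Hochberg fell below 0.05.

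Most of these genes fell with OSKM, and for 5 of the 9 the change was called more negative in KO cells. On day 6 against day 0, 8 of the 9 genes were lower and 1, TGFB3, was higher in NT cells, where 66.8% of all genes were called, 33.1% lower and 33.6% higher. In KO cells 9 of 9 were lower, where 73.8% of all genes were called, 36.2% lower and 37.6% higher. KO cells on day 0 had 3 of the 9 genes lower (TGFB1, TGFB2 and LTBP2) and 2 higher (TGFBR2 and TGFBI), against 10.7% and 7.42% of all genes, 18.2% in sum. On day 6, 8 of the 9 were lower in KO cells and 0 higher, against 19.2% and 17.7% of all genes, 36.9% in sum, and TGFBR1 alone was not called. The median difference of the 9 genes between KO and NT cells was -0.11 on day 0 and -0.86 on day 6, beside medians of -0.004 and 0.006 over all genes tested. The effect of KO differed between the days for 6 of the 9 genes, 5 of them more negative on day 6, where 20.3% of all genes differed and 11.2% in that direction. Libraries of the groups compared did not overlap for 6 of 9 genes between KO and NT on day 0 (33.6% of all genes) and for 8 of 9 on day 6 (49.6%). Between the days they did not overlap for 9 of 9 in either genotype (69.6% and 76.4%).

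**Figure D1:**
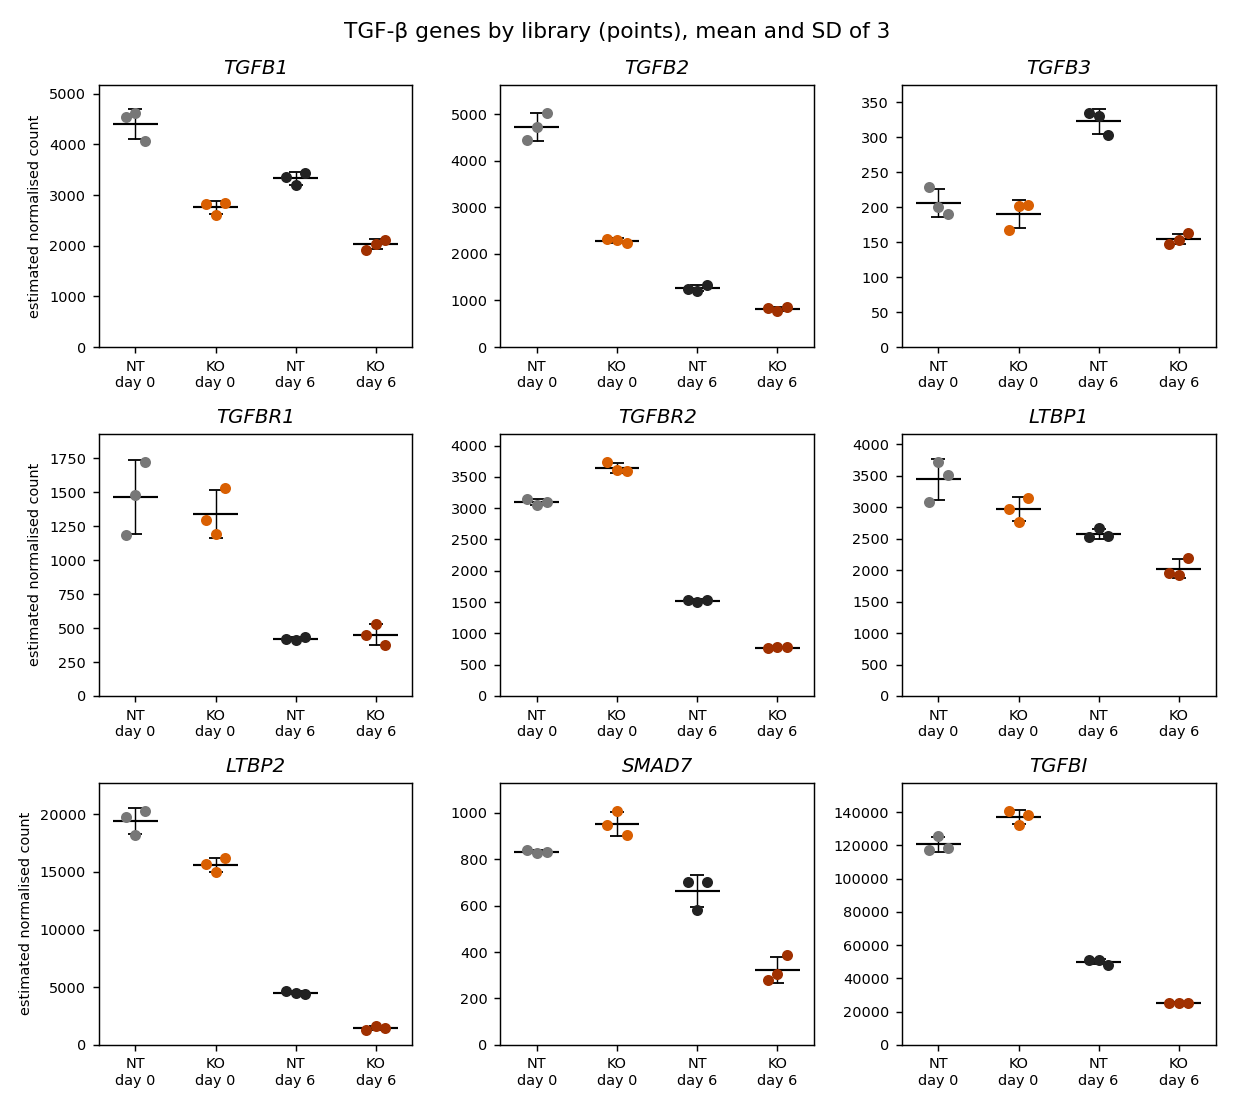
Estimated normalised count of each of the 9 genes (vertical axes, linear, starting at 0) in the 12 libraries by group. Points are libraries and bars are the mean and SD of 3. TGFB3 peaks in NT cells on day 6, at 303 to 335, and TGFBR2, SMAD7 and TGFBI are highest in KO cells on day 0 and lowest in KO cells on day 6.

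Among the genes the levels per kb of transcript spanned a wide range. TGFBI was far ahead in NT cells on day 0, with 42972 ± 1552 estimated counts per kb (SD, n = 3), and by estimated normalised count, not divided by length, it was number 10 among all tested genes. LTBP2 followed with 2267 ± 130 and TGFB1 with 1592 ± 107 per kb. The others in that group were TGFB2 with 935 ± 58.3, TGFBR2 with 671 ± 10.7 and LTBP1 with 544 ± 50.9 per kb. TGFBR1 with 225 ± 41.6, SMAD7 with 188 ± 1.16 and TGFB3 with 81.9 ± 7.98 per kb were the lowest. In KO cells on day 6 the order was different, with TGFB1 (732 ± 36.1) and LTBP1 (319 ± 23.2) next after TGFBI (8990 ± 92.0), and LTBP2 down to 169 ± 17.7 per kb.

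TGFB1 encodes the ligand most studied in fibrosis and lies on chromosome 19 (GRCh38, 41301587 to 41353911, ENSG00000105329.11). It stood at 4539, 4618 and 4071 in the NT libraries of day 0 and at 2813, 2616 and 2835 in the KO libraries. The day 6 counts were 3365, 3193 and 3433 in NT and 1922, 2035 and 2121 in KO cells. Every KO library lay below every NT library, whichever the day. KO cells had 1.60-fold less on day 0 (difference -0.67, SE 0.06, adjusted p = 2.30e-06) and 1.64-fold less on day 6 (-0.70, SE 0.06, adjusted p = 2.77e-07). The fall from day 0 to day 6 was small in both genotypes, -0.40 in NT and -0.43 in KO cells, and -0.24 in NT cells after quantile normalisation. The KO effects of the 2 days differed by -0.04, with a 95% interval of -0.21 to 0.14 (adjusted p = 0.806).

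TGFB2 (chromosome 1, 218346235 to 218444619, ENSG00000092969.12) is the ligand with a role in eye, heart and skeletal development. NT libraries had 4432, 4718 and 5022 counts on day 0 and 1255, 1205 and 1330 on day 6. KO libraries had 2319, 2307 and 2233, and then 837, 771 and 857. The 4 groups did not overlap, in the order NT day 0, KO day 0, NT day 6, KO day 6. On day 0 KO cells had 2.07-fold less (-1.03, SE 0.06, adjusted p = 5.72e-08), a difference below that of all but 0.269% of genes. On day 6 the gap was 1.54-fold (-0.59, SE 0.06, adjusted p = 2.18e-06), so the KO effect was smaller by 0.44 (SE 0.08, adjusted p = 0.00176). TGFB2 fell 3.74-fold with OSKM in NT cells and 2.78-fold in KO cells.

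TGFB3 (chromosome 14, 75958099 to 75982991, ENSG00000119699.8), a ligand needed for palate closure, had the lowest level of the ligands and a pattern of its own. On day 0 it stood at 229, 201 and 190.0 in NT libraries and 168, 202 and 203 in KO libraries, and these groups overlapped. On day 6 NT libraries had 335, 331 and 303 but KO libraries 148, 153 and 163. NT cells thus rose 1.56-fold with OSKM (0.54, SE 0.09, adjusted p = 1.18e-04). The KO value moved by -0.23 (SE 0.09, adjusted p = 0.0344), a call that was lost without KO replicate 2 or 3 of day 0 (adjusted p = 0.109 and 0.110), without KO replicate 1 or 2 of day 6 (0.0953 and 0.0699), with no filter (0.0788) and with only the groups compared in the fit (0.0563). KO against NT was not called on day 0 (-0.09, 95% interval -0.29 to 0.11, adjusted p = 0.552). On day 6 KO cells had 2.09-fold less (-0.86, SE 0.09, adjusted p = 4.94e-06), and the KO effect differed between the days by -0.77 (SE 0.13, adjusted p = 8.31e-04).

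Per kb the ligand transcripts together came to 2609 ± 71.0 for NT and 1523 ± 36.0 for KO libraries of day 0, and to 1581 ± 51.8 and 956 ± 41.4 for those of day 6. KO cells before OSKM, at 1481 to 1546, and NT cells on day 6, at 1523 to 1623, overlapped in this sum. Their make-up was not alike. TGFB2 was 35.9 ± 2.89% of the sum for NT and 29.7 ± 1.11% for KO on day 0, and 15.8 ± 0.357% and 17.0 ± 0.982% on day 6. TGFB1 went from 61.0 ± 2.70% and 65.3 ± 1.33% to 76.1 ± 0.330% and 76.6 ± 0.966%. The share of TGFB3 was 3.14 ± 0.297% and 4.97 ± 0.584% on day 0, and 8.11 ± 0.635% in NT against 6.41 ± 0.0375% in KO cells on day 6.

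**Figure D2:**
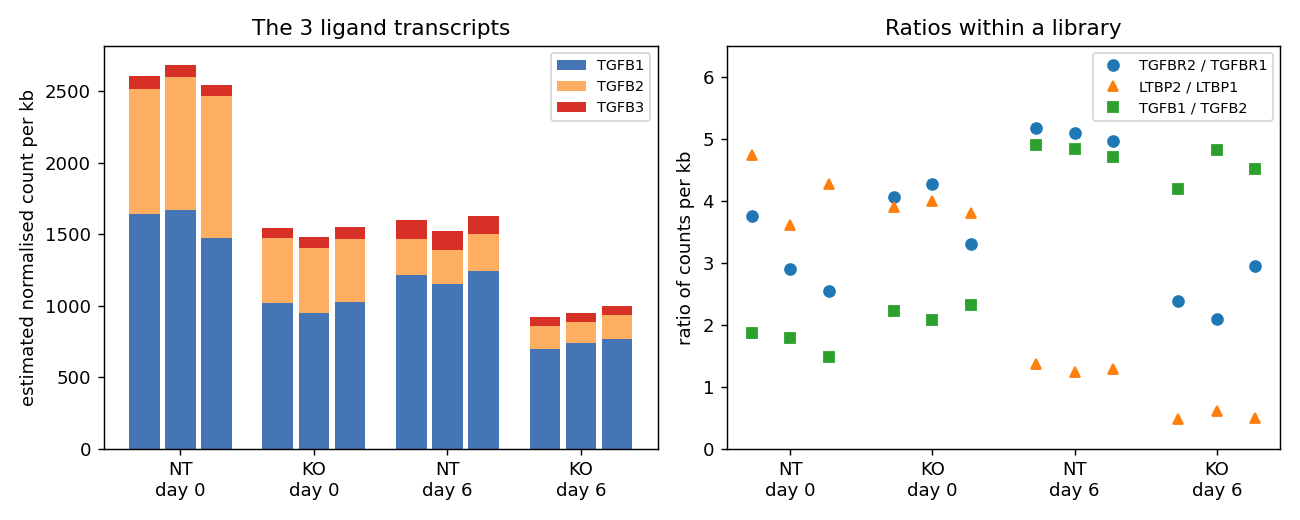
Left, estimated normalised counts per kb of the ligand transcripts in each of the 12 libraries, stacked by gene. Right, ratios of counts per kb within each library for the receptors, the latent binding proteins and the leading ligands. The TGFB1 to TGFB2 ratio runs from 1.48 to 2.32 on day 0 and from 4.19 to 4.89 on day 6, and the LTBP2 to LTBP1 ratio falls below 1 in KO cells on day 6.

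The receptor genes parted company. TGFBR1 (chromosome 9, 99104038 to 99154192, ENSG00000106799.13) encodes the signalling kinase of the pair. In NT libraries it stood at 1183, 1483 and 1724 on day 0 and at 416, 413 and 436 on day 6. KO libraries had 1296, 1190.5 and 1531 and then 452, 528 and 373, so KO and NT overlapped on both days while the days did not. It fell 3.47-fold with OSKM in NT cells (-1.65, SE 0.13, adjusted p = 2.52e-08) and 2.97-fold in KO cells (-1.47, adjusted p = 7.23e-08). KO against NT gave -0.11 on day 0 (95% interval -0.39 to 0.16, adjusted p = 0.603) and 0.07 on day 6 (-0.20 to 0.35, adjusted p = 0.693), intervals that leave room for modest differences either way.

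TGFBR2 (chromosome 3, 30606502 to 30694142, ENSG00000163513.19) encodes the receptor that binds ligand first and activates the other. NT cells had 3146, 3048 and 3103 on day 0 and KO cells 3739, 3602 and 3595, all above NT. On day 6 NT libraries had 1528, 1495 and 1535 and KO libraries 763, 780.3 and 778, all below NT. KO cells were thus 1.18-fold higher on day 0 (0.23, SE 0.04, adjusted p = 0.00177) and 1.96-fold lower on day 6 (-0.92, SE 0.04, adjusted p = 4.71e-10). The KO effect differed between the days by -1.15 (SE 0.06, adjusted p = 1.25e-08), more negative than for all but 0.747% of genes. With OSKM the gene fell 2.04-fold in NT cells and 4.71-fold in KO cells. The ratio of TGFBR2 to TGFBR1 per kb was 2.54 to 3.75 in NT and 3.31 to 4.27 in KO libraries on day 0, and 4.96 to 5.18 in NT against 2.09 to 2.94 in KO libraries on day 6, where the groups did not overlap.

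LTBP1 (chromosome 2, 32946972 to 33399509, ENSG00000049323.16) encodes the protein that carries latent TGF-β into the matrix. On day 0 it stood at 3091, 3723 and 3520 in NT and 2973, 2773 and 3154 in KO libraries, which overlapped, and on day 6 at 2530.0, 2668 and 2536 against 1961, 1918 and 2191, which did not. KO cells had 1.27-fold less on day 6 (-0.34, SE 0.07, adjusted p = 0.00152). The day 0 difference of -0.21 missed the threshold (adjusted p = 0.0538). It passed with the stricter filter (0.0465), without NT replicate 1 (0.0130) or KO replicate 3 (0.0463) of day 0 and without KO replicate 3 of day 6 (0.0447). The fall with OSKM was 1.34-fold in NT and 1.47-fold in KO cells.

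LTBP2 (chromosome 14, 74498170 to 74612378, ENSG00000119681.12) encodes a relative that binds fibrillin in elastic fibres and, unlike LTBP1, does not bind the latent ligand. On day 0 NT libraries had 19787, 18173 and 20313 counts and KO libraries 15692, 14969.6 and 16191. By day 6 they had come down to 4649, 4464 and 4434 in NT and to 1288, 1588 and 1471 in KO cells. The 4 groups did not overlap. LTBP2 fell 4.30-fold with OSKM in NT cells (-2.09, SE 0.06, adjusted p = 6.06e-13) and 10.8-fold in KO cells (-3.38, SE 0.06, adjusted p = 1.66e-15). The KO difference was -0.31 on day 0 (SE 0.06, adjusted p = 0.00382), but -0.20 and no longer called (adjusted p = 0.0533) after quantile normalisation. On day 6 it was -1.61 (SE 0.06, adjusted p = 1.04e-10), below that of all but 0.256% of genes, and the KO effects differed by -1.29 (SE 0.09, adjusted p = 2.46e-07). Per kb LTBP2 exceeded LTBP1 by 3.61 to 4.73 times in NT cells on day 0, and had 0.485 to 0.612 of its level in KO cells on day 6.

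SMAD7 (chromosome 18, 48919853 to 48952052, ENSG00000101665.9), the inhibitory SMAD, had 838, 828 and 833 counts in NT libraries and 945, 1009 and 906 in KO libraries before OSKM. Each KO library was above each NT library, yet the difference of 0.18 (SE 0.10) did not pass the test (95% interval -0.02 to 0.39, adjusted p = 0.219). After OSKM NT libraries had 700.2, 583 and 704 and KO libraries 280.2, 304 and 385, without overlap. The change with OSKM in NT cells was -0.31 (SE 0.10, adjusted p = 0.00979), and -0.23 without NT replicate 2 of day 6 (adjusted p = 0.0579). In KO cells SMAD7 fell 2.95-fold (-1.43, SE 0.10, adjusted p = 3.02e-09). KO cells had 2.05-fold less than NT on day 6 (-0.93, SE 0.10, adjusted p = 3.09e-06), and the KO effect differed between the days by -1.11 (SE 0.14, adjusted p = 4.60e-05).

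TGFBI (chromosome 5, 136028895 to 136063818, ENSG00000120708.17) encodes a secreted collagen-binding protein named for its induction by TGF-β. It stood at 117432, 125476 and 118570.1 in NT and at 140809, 132159.8 and 138245 in KO libraries on day 0. On day 6 it stood at 51096, 50972 and 48058 in NT and at 25403, 24916 and 25306 in KO libraries. Again KO cells were on top before OSKM and at the bottom after it, with no overlap. The day 0 difference was 0.19 (SE 0.04, adjusted p = 0.00418), and 0.33 after quantile normalisation. The day 6 difference was -0.99 (SE 0.04, adjusted p = 8.79e-11), a 1.99-fold lower level, and the KO effects differed by -1.17 (SE 0.05, adjusted p = 5.82e-09). From day 0 to day 6 TGFBI fell 2.41-fold in NT cells (-1.27, and -0.61 after quantile normalisation) and 5.44-fold in KO cells (-2.44, SE 0.04). Among all genes tested its place by estimated normalised count went from number 10 (NT) and 6 (KO) on day 0 to 19 and 46 on day 6.

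**Figure D3:**
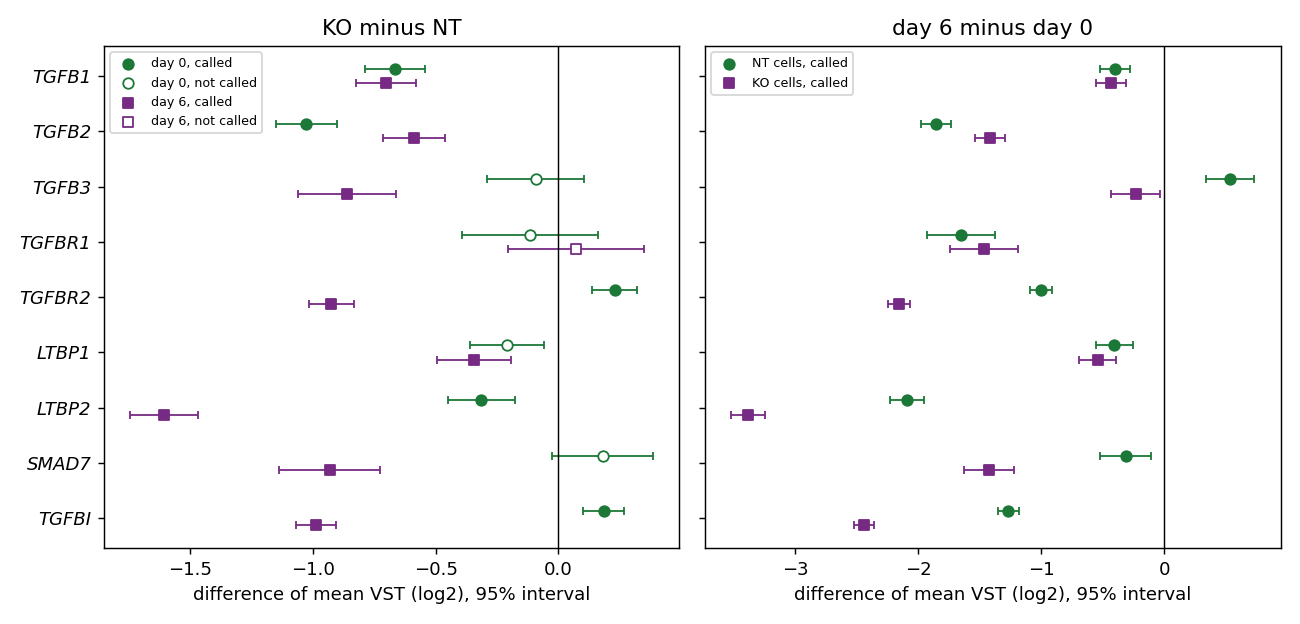
Difference of mean VST values (log2) with its 95% interval for the 9 genes. Left, KO minus NT on day 0 (circles) and day 6 (squares). Right, day 6 minus day 0 in NT cells (circles) and KO cells (squares). Open symbols were not called. TGFBR2 and TGFBI lie above 0 on day 0 (0.23 and 0.19) and below it on day 6 (-0.92 and -0.99).

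TGFBR2 and TGFBI were the only members called higher in KO cells on day 0 and lower on day 6, a pattern of 172 genes (1.16% of those tested). TGFB1, TGFB2 and LTBP2 were called lower on both days, as 905 genes (6.09%) were. After centring each gene on its mean, the root mean square distance between TGFBR2 and TGFBI over the 12 libraries was 0.15 VST units (Pearson r = 0.998), the smallest between any pair of the 9. The next was LTBP1 with TGFB1, at 0.23 (r = 0.841). These 12 libraries fall into 4 groups, so such values chiefly describe the group means.

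The promoters of TGFBR2 and TGFBI are shown because these genes moved together, and that of TGFB3 because it alone rose in NT cells. The stretches lie before the RefSeq gene start (GRCh38.p14), up to 250 bases and cut short at the first annotated exon, and run 5′ to 3′ on the gene's strand. The windows were searched on both strands for CAGAC, the core of the SMAD binding element, and for TGANTCA, the motif of AP-1, and capitals mark any match.
TGFBR2, chr3:30606106-30606355, plus strand: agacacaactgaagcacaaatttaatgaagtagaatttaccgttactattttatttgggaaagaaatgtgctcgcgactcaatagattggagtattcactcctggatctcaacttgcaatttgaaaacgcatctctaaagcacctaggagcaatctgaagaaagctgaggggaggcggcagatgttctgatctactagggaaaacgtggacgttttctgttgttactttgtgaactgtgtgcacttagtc
TGFBI, chr5:136028738-136028894, plus strand: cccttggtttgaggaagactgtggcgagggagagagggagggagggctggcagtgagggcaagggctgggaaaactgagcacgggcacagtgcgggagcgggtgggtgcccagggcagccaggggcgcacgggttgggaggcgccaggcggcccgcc
TGFB3, chr14:75983012-75983261, minus strand: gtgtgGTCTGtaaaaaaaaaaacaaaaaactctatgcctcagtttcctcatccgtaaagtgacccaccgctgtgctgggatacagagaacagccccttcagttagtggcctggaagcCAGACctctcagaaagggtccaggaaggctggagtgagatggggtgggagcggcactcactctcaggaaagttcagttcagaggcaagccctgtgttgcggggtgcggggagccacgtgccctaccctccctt
Over the 250 bases before the start, neither motif was found for TGFBR2 or TGFBI, while TGFB3 held CAGAC at 2 places, once on each strand. CAGAC was also found for TGFB2, LTBP1 and SMAD7 (2 each) and TGFBR1 (1), so in 5 of 9 genes, and TGANTCA in 0 of 9. Of 35116 promoters of the same length, 38.0% held CAGAC and 6.57% held TGANTCA. The GC content of the windows was 40.8% for TGFBR2, 54.8% for TGFB3 and 72.8% for TGFBI, beside a median of 58.0%.

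Other genes of the pathway were taken as 5 lists. Of 12 tested genes for storage and activation of the ligand, 6 were lower and 1 higher in KO cells on day 0 (median difference -0.14), and 8 were lower and 1 higher on day 6 (-0.27), beside 18.2% and 36.9% of all genes called on these days. THBS1, thrombospondin 1, an activator of latent TGF-β, had 64455 ± 5148 counts in NT and 32163 ± 391 in KO libraries of day 0 (2.00-fold less, adjusted p = 2.06e-08), then 12903 ± 556 and 2039 ± 43.5 on day 6 (-2.63, adjusted p = 8.36e-14). FBN1, the fibrillin that anchors the latent complexes, was lower by 0.65 and 1.45. Both lie on chromosome 15 with MORF4L1, whose 496 tested genes had median differences of -0.13 and -0.08. ITGAV, the integrin chain that binds the propeptide of the ligand, was lower on both days (-0.60 and -0.96). LTBP4 was the gene that was higher on both days (0.48 and 0.65). FBN2 was lower in KO cells on day 0 (-0.84) but rose with OSKM in both genotypes, and its KO effect was weaker on day 6 by 0.68 (adjusted p = 4.17e-05). LRRC32, which holds latent TGF-β at the cell surface, changed with OSKM by -1.67 in NT and -1.73 in KO cells, both called.

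Of the 10 co-receptors and other receptors of the superfamily, 1 was lower in KO cells on day 0, beside 18.2% of all genes called. It was TGFBR3 (-0.28, adjusted p = 0.0406, with overlapping libraries). The count ran from 0 to 3 when 1 library was left out. It was 2 without NT replicate 2 of day 0, 3 without KO replicate 2, and 0 without any of NT replicate 3 and KO replicates 1 and 3 of day 0, NT replicates 1 and 2 and KO replicate 1 of day 6. On day 6, 3 were lower and 1 higher, beside 36.9% of all genes called. ENG, endoglin, a co-receptor of endothelium and activated fibroblasts, had 3809 ± 152 counts in NT and 1908 ± 135 in KO libraries of day 6 (-0.98, adjusted p = 3.15e-08). The BMP receptor BMPR2 was lower by 0.65, and ACVR2B, an activin receptor, was higher by 0.61. With OSKM 3 of the 10 rose and 6 fell in each genotype. Of all genes 33.6% rose and 33.1% fell in NT cells, and 37.6% and 36.2% in KO cells. ACVR2B rose by 1.26 in NT and 1.58 in KO cells and the BMP receptor BMPR1A by 0.89 and 1.21, while TGFBR1 and TGFBR2 fell. The remaining gene that rose was TGFBR3 in NT cells (0.36) and ACVR2A in KO cells (0.40), each not called in the other genotype.

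Of the 6 genes for SMAD transducers and their anchor ZFYVE9, 0 were called by limma between genotypes on day 0 and 0 had an unadjusted p under 0.05. Of all genes 18.2% were called on that day. SMAD3, on chromosome 15, had 1588 ± 119 counts in NT and 950 ± 54.9 in KO libraries of day 6 (-0.71, adjusted p = 1.18e-06), and its KO effects differed by -0.77 between the days (adjusted p = 4.42e-05). SMAD2 fell with OSKM by 0.65 in NT and 0.78 in KO cells, and its KO difference was not called on either day. SMAD1, a BMP effector, was higher in KO cells on day 6 (0.38, adjusted p = 0.0445), with overlapping libraries. The day 6 count was 2 of 6, beside 36.9% of all genes called. It came down to 1 without any of the NT replicates or KO replicate 2 of day 0. It was also 1 without NT or KO replicate 1 or 2 of day 6. In NT cells 3 of the 6 fell with OSKM, beside 33.1% of all genes. That count was 1 without NT replicate 2 or 3 of day 0 or NT replicate 1 of day 6.

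Among 13 inhibitors of the pathway, 3 were lower and 2 higher in KO cells on day 0 (3 called in all without KO replicate 3 of day 0), and 7 were lower and 1 higher on day 6, beside 18.2% and 36.9% of all genes called. LDLRAD4, a membrane protein that sequesters SMADs, stood at 504 ± 51.0 in NT and 289 ± 0.823 in KO libraries on day 0 and at 238 ± 44.0 and 83.01 ± 16.3 on day 6 (-1.12, adjusted p = 5.28e-06). SMURF2, a ubiquitin ligase that acts with SMAD7 on the receptors, fell with OSKM from 4537 ± 441 to 949 ± 37.2 in NT and from 4205 ± 282 to 534 ± 41.5 in KO cells. PMEPA1, induced by the pathway and inhibitory to it, was lower in KO cells on both days (-0.43 and -0.72). SMAD6, the other inhibitory SMAD and a chromosome 15 gene, was higher in KO cells on day 0 (0.75, adjusted p = 2.65e-04) and lower on day 6 (-0.31, adjusted p = 0.0400). The repressor TGIF1 was higher in KO cells on both days (0.29 and 0.51). BAMBI, a decoy receptor, rose with OSKM by 1.43 in NT and 1.15 in KO cells.

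The list of direct targets holds genes known to be induced by the pathway in some cell types. Of its genes 19 were tested, and PMEPA1 and SKIL are also in the list of inhibitors. In KO cells 11 were lower and 1, TSC22D1, was higher on day 0 (median difference -0.34), and 17 were lower and 0 higher on day 6 (-0.78). Of all genes 10.7% were lower and 7.42% higher on day 0, and 19.2% and 17.7% on day 6. CCN2, connective tissue growth factor, was lower in KO cells by 0.71 on day 0 (adjusted p = 1.37e-07) and by 1.09 on day 6. The collagen genes COL1A1 and COL1A2 were 3.47-fold and 3.01-fold lower on day 6, and these are among the fibroblast markers given above. FN1, fibronectin, had 1039041 ± 38925 counts in NT and 1043491 ± 52506 in KO libraries of day 0 (0.01, adjusted p = 0.956), and was lower by 1.33 in KO cells on day 6. The cell cycle inhibitor CDKN2B was lower on day 0 by 0.82 and IGFBP3 by 0.80. For 13 of the 19 the KO effect was called more negative on day 6 than on day 0, and for 0 less negative, beside 11.2% and 9.07% of all genes. For the other 6 the difference between the days was not called.

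**Figure D4:**
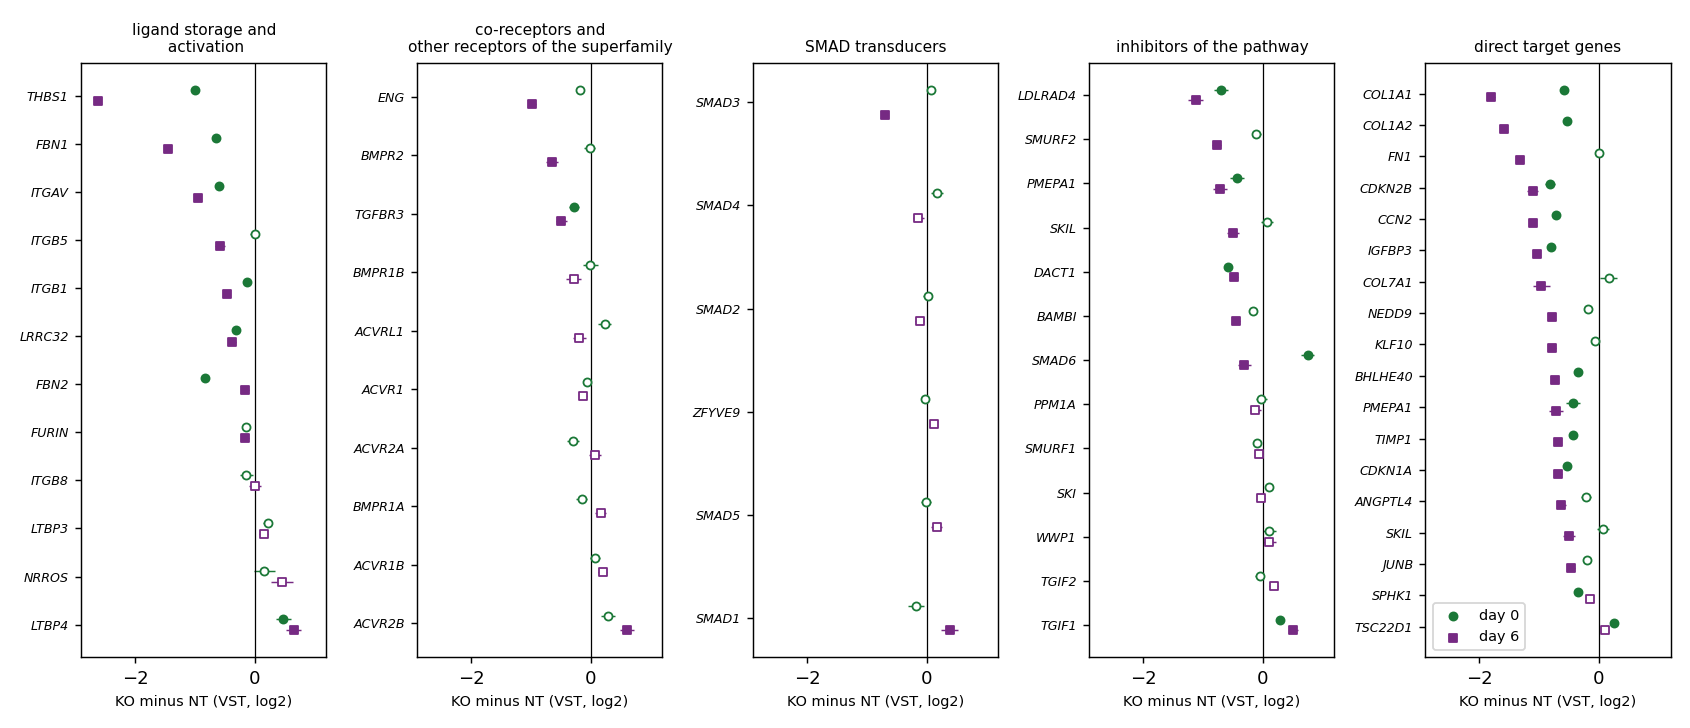
KO minus NT difference of mean VST values (log2) with its SE for tested genes of the 5 pathway lists that are reported here, on day 0 (circles) and day 6 (squares), with open symbols for genes not called. The squares lie left of the circles for most direct targets, such as COL1A2 at -0.54 on day 0 and -1.59 on day 6.

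The genes whose centred profiles lay closest to each member over the 12 libraries were looked up, as a description of these groups. CDKN1A, a cell cycle inhibitor and one of the direct targets above, was nearest to TGFB1 (distance 0.09, r = 0.978). VIM, vimentin, which is among the fibroblast markers, was nearest to TGFBI (0.10, r = 0.996) and LOXL3, a collagen crosslinking enzyme, to LTBP2 (0.14, r = 0.996), with COL8A1, a collagen, next (0.16). PTGFR, a prostaglandin receptor, was nearest to TGFBR2 (0.11). NPR3, a natriuretic peptide receptor (0.11), and IGFBP2 (0.13) were nearest to TGFB2, and PLXND1, a semaphorin receptor (0.12), to TGFB3. TGFBR1 was nearest to the kinase gene PRKCE (0.11), SMAD7 to GASK1B (0.14) and LTBP1 to CARS1, a tRNA synthetase (0.07). The remaining neighbours were PAPSS2 for TGFB1, C11orf87 for TGFB3, CDCP1 for TGFBR1, DUSP14 for LTBP1, GUCY1A2 for SMAD7 and KCNMA1 for TGFBI, at distances from 0.07 to 0.15.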

How the data were processed

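Messenger RNA of 12 dH1f samples was measured. The labels' protocols give a Zymo Research extraction and TruSeq Stranded mRNA libraries. In the submitters' processing notes STAR, Salmon, DESeq2 and build GRCh38 appear; no version, annotation or strand setting is given in the sources used here. Values in the authors' deposited table are on a log2 scale, a VST of normalised counts by the table's name, with 1 floor value of 4.85 for 0 reads in each library.

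From these, normalised counts were estimated by inverting the parametric form of the VST, which is assumed. Depth was estimated from the value that 1 read most often takes. Per-kb levels use the longest coding transcript in GENCODE release 29, which also gave the coordinates; symbols came from the identifiers. Genes with a mean at least 1 above the floor (14.4 estimated counts) were tested with limma 3.58.1 in R 4.3.3 (trend option, 4 groups in 1 fit, 5 two-sided comparisons). Differences understate the log2 fold of low genes. The procedure was run on simulated data for KO against NT on day 0 only, with the outcome not reported here.

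The members and lists were chosen with earlier results of these data known. Named genes are the 9 members, up to 3 called genes of each list per comparison with the largest differences (otherwise the 2 most abundant), and the 2 genes nearest each member; others named from the lists were chosen after their values were seen. Some genes that the rule takes are counted but not reported here by name. The alternatives were other filters, quantile and median scaling, log2 of estimated counts plus 1 or 10, robust or untrended variances, the replicate number as a block, only the groups compared, and each library left out in turn.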

Additional observations from a re-analysis of the deposited data

Results flagged for a closer look

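For 6 of the 9 genes the KO effect on day 6 differed from that on day 0 by limma's test of the difference itself. It was more negative on day 6 for LTBP2 (by -1.29), TGFBI (-1.17), TGFBR2 (-1.15), SMAD7 (-1.11) and TGFB3 (-0.77), and less negative for TGFB2 (0.44). Adjusted p ran from 5.82e-09 for TGFBI to 0.00176 for TGFB2. Among all genes tested, 20.3% differed in this way.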

How the results depend on the processing

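Over all alternatives, 0 of the differences of the 9 genes reversed a called direction, 968 kept their side of the threshold, 8 lost a call and 5 gained one; those of TGFB3, LTBP1, LTBP2 and SMAD7 are given with the genes. Leaving out each library, called members ranged from 5 to 6 (KO against NT on day 0), 8 to 8 (day 6), 8 to 9 (OSKM in NT), 8 to 9 (OSKM in KO) and 6 to 6 (difference of the KO effects). The count of co-receptors called on day 0, 1 in the report, was 0 with no filter, with the replicate block and with only the groups compared, and 2 with the stricter filter, after quantile normalisation and with no trend, and 0 to 3 with libraries left out. The SMAD transducers called on day 6, 2 in the report, were 1 with no filter, with no trend and on log2 of estimated counts with either pseudocount (1 or 10), and 1 to 2 with libraries left out; in NT cells with OSKM, 3 became 1 with no filter, with no trend and with only the groups compared, and 1 to 3 with libraries left out. Inhibitors on day 0 ranged from 3 to 5, and in the difference of the KO effects co-receptors ranged from 2 to 4 and transducers from 1 to 2. Replicate numbers gave no ground for pairing, since residuals of same-numbered libraries correlated at -0.053 to 0.063 and other pairs at -0.055 to 0.074. With the replicate block, members called on day 0 were 6, LTBP1 being added (adjusted p = 0.0497), and their number in the other comparisons was as without it. Genes under 14.4 estimated counts on average were not tested.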

Other observations

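Some members share their locus with other transcripts, and the strand setting of the counting is not known here. TGFB2-OT1, on the same strand inside TGFB2, had mean estimated counts of 189 (NT) and 77.8 (KO) on day 0 and of 58.7 and 37.4 on day 6, beside 4724, 2286, 1263 and 822 for TGFB2. IFT43 runs across TGFB3 on the other strand, at 304 and 304 on day 0 and at 202 and 210 on day 6, where TGFB3 had 323 in NT and 155 in KO cells. HNRNPUL1, CCDC97 and TMEM91 overlap TGFB1 on the other strand, with means of 5869, 535 and 72.0 in NT cells on day 0.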
